A study of Mus musculus with 6 samples.

Results

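The genes described here encode the oxygen-dependent hydroxylases of hypoxia-inducible factor (HIF), together with the protein that reads their main mark. They are Egln3 (PHD3), Egln1 (PHD2), Egln2 (PHD1), Hif1an (FIH), P4htm (PH-4) and Vhl. They were chosen by gene symbol, taking every probe set that carries 1 of these 6 symbols, which gave 12 of 45037 non-control probe sets and 6 of 18193 named genes. Expression was measured in neutrophils isolated from the peripheral blood of 3 phd3 null and 3 wild-type mice, with 1 Affymetrix array per mouse. All mice were of C57 background, and all neutrophils were selected magnetically by removal of other cells and then kept for 4 h at 3% oxygen. There is thus no phd3 null or wild-type sample at normal oxygen in these data, and age and sex are not given in the labels. The labels name the phd3 null genotype without saying which part of the gene was deleted or whether the deletion spared any tissue.

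HIF is a heterodimer whose alpha subunit is made continuously and destroyed when oxygen is available. EGLN1, EGLN2 and EGLN3 hydroxylate prolines of the alpha subunit, using oxygen, iron and 2-oxoglutarate, and VHL, the substrate-binding part of a ubiquitin ligase, binds the hydroxylated protein. HIF1AN hydroxylates an asparagine and thereby blocks the binding of transcriptional co-activators, while P4HTM is a membrane-bound prolyl hydroxylase of the endoplasmic reticulum. In many cells Egln1 and Egln3 are themselves induced by HIF, whereas Egln2 generally is not. The comparison asks whether the remaining enzymes or Vhl were expressed at another level in neutrophils without Egln3.

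The upstream sequences of the 3 Egln paralogs are shown because Egln1 and Egln3 belong both to the sensor and to its known target genes. Each run is the 250 bases before an annotated start in RefSeq (GRCm38.p6), read 5′ to 3′ on the minus strand, with the core letters of the hypoxia response element (ACGTG or GCGTG, on either strand, overlapping matches counted) in capitals. Egln1 lies at chr8:124949255-124949504, Egln2 at chr7:27166803-27167052 for the outer of its 2 starts, and Egln3 at chr12:54203875-54204124.
Egln1: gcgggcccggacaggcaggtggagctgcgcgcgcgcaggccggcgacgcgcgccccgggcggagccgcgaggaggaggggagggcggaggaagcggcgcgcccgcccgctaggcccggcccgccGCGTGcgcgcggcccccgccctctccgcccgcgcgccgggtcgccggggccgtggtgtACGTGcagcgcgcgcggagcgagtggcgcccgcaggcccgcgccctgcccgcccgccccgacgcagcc
Egln2: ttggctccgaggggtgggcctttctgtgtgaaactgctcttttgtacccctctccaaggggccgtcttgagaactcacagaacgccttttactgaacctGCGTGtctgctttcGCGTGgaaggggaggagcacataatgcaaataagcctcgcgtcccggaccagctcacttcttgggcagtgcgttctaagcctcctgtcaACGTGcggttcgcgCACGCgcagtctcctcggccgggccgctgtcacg
Egln3: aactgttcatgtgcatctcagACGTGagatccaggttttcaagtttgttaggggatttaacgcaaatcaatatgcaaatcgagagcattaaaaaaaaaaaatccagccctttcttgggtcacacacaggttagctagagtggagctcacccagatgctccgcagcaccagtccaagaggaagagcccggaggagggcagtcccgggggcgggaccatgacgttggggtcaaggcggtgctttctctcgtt
The Egln1 window held 2 matches, the Egln2 window 4 and the Egln3 window 1. The inner Egln2 start held 1, and the windows of Hif1an, P4htm and Vhl held 0. Of 32851 such windows in the table, 38.6% held at least 1 match, so these letters are common, and a match shows letters only, not binding. G and C made up 86% of the Egln1 window and 50.8% of the Egln3 window.

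Values are MAS5 signals on a linear scale, and their precision is limited by the number of arrays. Replicate numbers run from 1 to 3 in both genotypes, and same-numbered samples share a code in the labels. The median signal of an array was 51.7 to 64.2 in phd3 null, against 49.4 to 60.3 in wild type. Of 15 neutrophil markers listed, 12 had a named probe set. By mean log2 value, 4 of the 12 were higher in phd3 null and 8 lower, while 49.4% of all genes tested were higher. Among those lower, S100a8 signal lay at 11102.8 to 20428.6 in phd3 null and at 17949 to 25479.7 in wild type. Among those higher, Cd177 read 202.8, 257.5 and 232.3 in phd3 null and 158.2, 102.6 and 131.1 in wild type. Both replicate 3 arrays stood apart, with a median correlation to the other arrays of 0.74 for the phd3 null and 0.771 for the wild-type one, against 0.794 to 0.812 for the other 4. Summed signal of the 5 B cell markers of samples 1 to 3 was 306.5, 625.9 and 5534.2 in phd3 null, against 346.3, 940.2 and 4485.8 in wild type, and no B cell marker was at 0. Summed signal of the 5 monocyte markers ran the other way, at 20596.7, 22273.7 and 9376.8 in phd3 null and 20529.3, 20993.7 and 9413.2 in wild type. Of these markers, Csf1r and F13a1 were lower on both replicate 3 arrays than on the other 4, and Ccr2, Cx3cr1 and Ctss were not. The mean log2 value of replicate 3 minus that of replicates 1 and 2 was -3.41 for F13a1 and -1.42 for Csf1r. It was -0.94 for Cx3cr1, -0.73 for Ccr2 and -0.0008 for Ctss. The 12 neutrophil markers summed to 43636.4, 53069.7 and 26475.4 in phd3 null and 59746.8, 48359.7 and 44547.5 in wild type. S100a8 and S100a9 carried most of that sum, and 5 of the 12, among them Cxcr2, Mmp8, Itgam and Csf3r, were lower on both replicate 3 arrays than on the other 4. Cxcr2, a chemokine receptor gene of neutrophils, read 840.1, 978.9 and 25.6 in phd3 null and 558.9, 836.6 and 227 in wild type. The mean log2 value of replicate 3 minus that of replicates 1 and 2 was -3.0 for Cxcr2, -1.63 for Mmp8, -1.56 for Itgam, -1.1 for Csf3r and -0.41 for Ngp. Among the remaining neutrophil markers it ran from -1.26 for Lcn2 to 0.03 for Cd177. The 5 NK cell markers summed to 433, 2394.6 and 1828.5 in phd3 null and 1219.9, 5267.1 and 2685.8 in wild type, a sum carried mostly by Gzma and lower in phd3 null in every pair, as were 3 of the 5 markers taken singly. T cell markers summed to 175.5, 164.3 and 468.8 in phd3 null and 115.4, 366.6 and 361.2 in wild type. Of the 3 tested, Cd3d and Cd3g were higher on both replicate 3 arrays than on the other 4, and Cd8a was not. Red cell markers, mostly Alas2, summed to 588.8, 3525.2 and 6390 in phd3 null and 2375.9, 5606.8 and 4193.2 in wild type. Sums of the eosinophil and platelet markers ran from 102.7 to 447.6 in phd3 null and from 124.2 to 358.9 in wild type. In bulk samples, fewer cells of a type and less RNA per cell cannot be told apart. Results on the hydroxylases that rest on replicate 3 are therefore given with and without it.

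**Figure D1:**
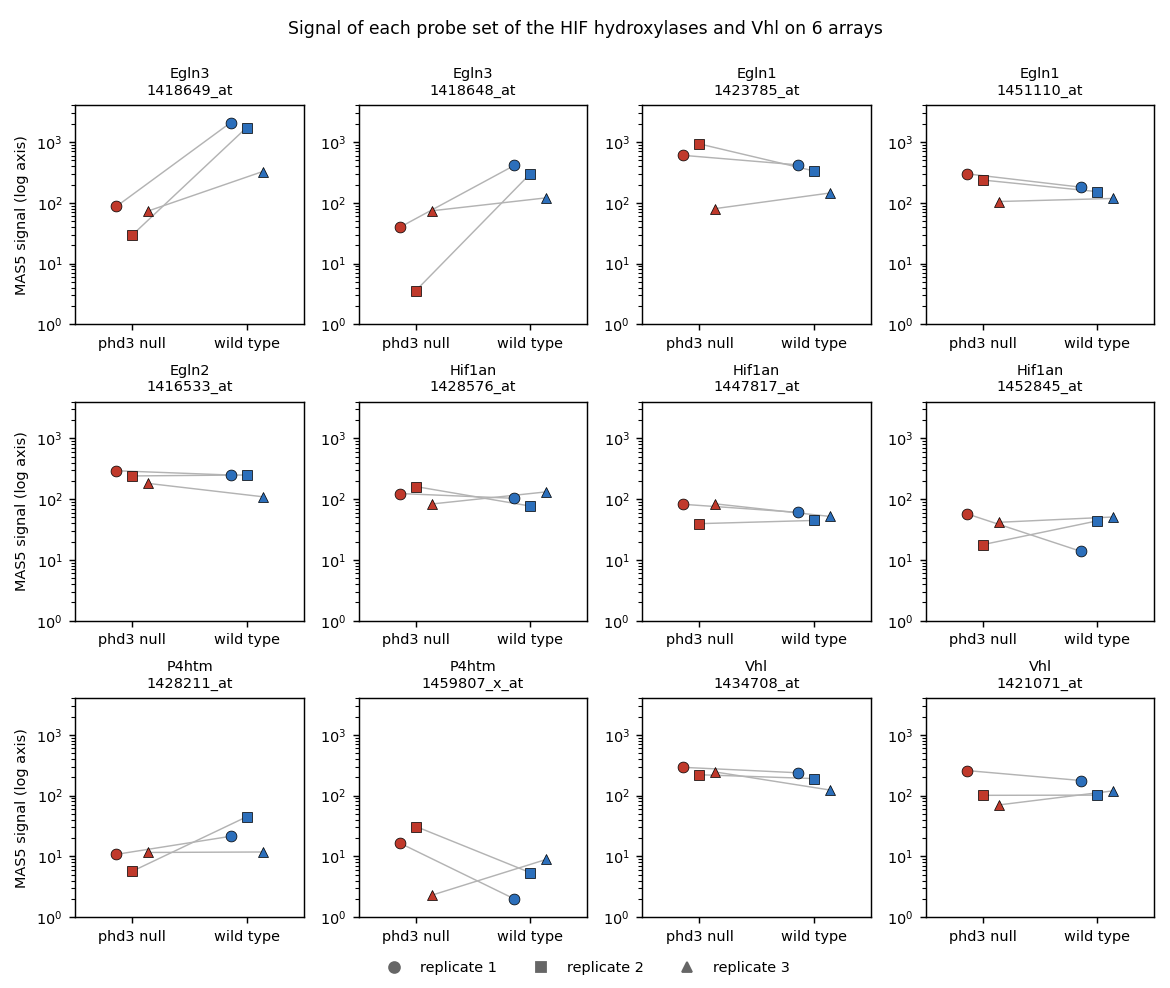
MAS5 signal (log axis) of the 12 probe sets, with phd3 null samples on the left and wild-type samples on the right of each panel. Each point is 1 array, its shape is the replicate number, and grey lines join same-numbered samples. The Egln3 probe sets separate the genotypes, whereas the probe sets of Egln1, Egln2, Hif1an and Vhl overlap between them.

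Egln3, the deleted gene, was low on every phd3 null array. Its brighter probe set, 1418649_at, read 87.2, 29.6 and 73.5 in phd3 null and 2088, 1733.9 and 327 in wild type. Probe set 1418648_at read 39.7, 3.6 and 73.9 in phd3 null and 411.3, 300 and 120.7 in wild type. At both probe sets every phd3 null array lay below every wild-type array, and the lowest wild-type value was that of replicate 3. The labels do not say whether these probe sets lie in the deleted part. The log2 fold change, phd3 null minus wild type on the log2(signal + 16) scale, was -3.85 (SE 0.65) at the brighter probe set. In limma across all 10960 genes tested, which called 0 of them (0%), it did not pass (adjusted p = 0.9996). No gene tested had a lower unadjusted p than its 0.0001824. With the replicate number as a block, which called 2 genes (0.0182%), Egln3 fell (SE 0.43, adjusted p = 0.001405). Without both arrays of replicate 3, and with no block, the log2 fold change was -4.81 (SE 0.37, adjusted p = 5.939e-05). The dimmer probe set differed by -2.52 (SE 0.59) in the fit over all probe sets, where it missed the threshold with the block as well (adjusted p = 0.09272).

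Egln3 also varied among the wild-type samples. The signal in wild-type sample 3 was lower than in wild-type samples 1 and 2 at both probe sets. In phd3 null neutrophils the brighter probe set did not follow that order, since sample 3 (73.5) lay between samples 2 and 1 (29.6 and 87.2). Replicate 3 therefore has the smallest difference between genotypes, -1.94 on the log2 scale, against -4.35 in pair 1 and -5.26 in pair 2. At the dimmer probe set the difference was -0.60 in pair 3, against -2.94 in pair 1 and -4.01 in pair 2. There, phd3 null sample 3 (73.9) was the highest of its genotype.

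Egln1, the paralog held to set HIF levels in most cells, did not pass the test. Its brighter probe set, 1423785_at, read 603.6, 931.1 and 80.4 in phd3 null and 421.3, 335 and 144.9 in wild type. The other, 1451110_at, read 299.8, 236.8 and 105 in phd3 null and 180.6, 152.7 and 118 in wild type. In replicates 1 and 2 both probe sets were higher in phd3 null than in any wild-type sample, and in replicate 3 both were lower in phd3 null than in its wild-type pair, so the groups overlapped. Means at the brighter probe set were 538.4 ± 429 in phd3 null neutrophils and 300.4 ± 141 in wild type (SD, n = 3 each). The log2 fold change was 0.40 (SE 0.77, adjusted p = 0.9996 in limma), with a 95% interval from -1.32 to 2.12, that is from 0.40-fold to 4.35-fold on the signal + 16 scale. With the replicate number as a block, the 95% interval was -0.30 to 1.09 (SE 0.33, adjusted p = 0.9172 in limma). Both intervals thus include a fold of 1.

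The Egln1 value turned on single arrays. Within pairs it was 0.50, 1.43 and -0.74 at the brighter probe set and 0.68, 0.58 and -0.15 at the other. That pattern, higher in pairs 1 and 2 and lower in pair 3, was shared by 12.5% of all genes tested. Without both arrays of replicate 3 the brighter probe set gave 0.97 (SE 0.31, 95% interval 0.31 to 1.63) and did not pass over all genes (adjusted p = 0.9659, unadjusted p = 0.007259). Adding the block to those 4 arrays gave an adjusted p of 0.1091, in a fit with 1 residual degree of freedom. The dimmer probe set gave 0.63 (SE 0.32) on the same 4 arrays. With all 6 arrays but 1, the log2 fold change of Egln1 ran from -0.25 without phd3 null sample 2 to 1.40 without phd3 null sample 3, and it was -0.03 without wild-type sample 3.

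Egln2, the paralog that hypoxia generally does not induce, had 1 probe set, 1416533_at. It read 294.1, 241.5 and 181.9 in phd3 null and 249.9, 250.5 and 109.8 in wild type. The groups overlapped, and sample 3 was the lowest in each genotype. The log2 fold change was 0.28 (SE 0.39, 95% interval -0.59 to 1.14, adjusted p = 0.9996), which spans 0.66-fold to 2.21-fold. Pairs gave 0.22, -0.05 and 0.65, and the value was 0.09 without both arrays of replicate 3 and -0.085 without wild-type sample 3 alone. With the block the 95% interval was -0.31 to 0.86 (SE 0.28, adjusted p = 0.942 in limma). In both fits the interval of Egln2 was narrower than that of Egln1.

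Hif1an, the asparaginyl hydroxylase, had 3 probe sets, which overlapped between genotypes. The brightest, 1428576_at, read 123.9, 161.4 and 83.5 in phd3 null and 103.5, 77.1 and 132 in wild type, with a log2 fold change of 0.19 (SE 0.36, 95% interval -0.62 to 1.01). Its pair differences were 0.23, 0.93 and -0.57, and the value was -0.0012 without phd3 null sample 2. The other Hif1an probe sets, 1447817_at and 1452845_at, lay between 17.9 and 83.8 in phd3 null and between 13.8 and 60.8 in wild type, and differed by 0.26 (SE 0.54) and 0.09 (SE 0.67) in the fit over all probe sets. With the block the 95% interval at 1428576_at was -0.60 to 0.99 (SE 0.37, adjusted p = 0.9703 in limma). No Hif1an probe set passed the test in either fit.

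P4htm, the transmembrane prolyl hydroxylase, was too dim for the test across genes. The mean log2(signal + 16) of its brighter probe set was below 5.9, the median of all probe sets. Its values there, at 1428211_at, were 10.8, 5.7 and 11.6 in phd3 null and 21.4, 44.8 and 11.8 in wild type. The second probe set, 1459807_x_at, read 16.5, 31 and 2.3 in phd3 null and 2, 5.4 and 8.9 in wild type. The probe sets disagreed in direction, at -0.66 (SE 0.51) and 0.51 (SE 0.41) on the log2(signal + 16) scale in the fit over all probe sets. The groups did not overlap at 1428211_at, by a gap of 0.2 signal units in replicate 3, as also for 3.56% of all probe sets in that direction. The values of P4htm carry no detection call here, so presence cannot be told from absence.

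Vhl, which presents hydroxylated HIF alpha for ubiquitination, had 2 probe sets that differed in direction. The brighter, 1434708_at, read 291.7, 220.5 and 244.7 in phd3 null and 237.7, 190.8 and 123.7 in wild type. It was higher in phd3 null in 3 of 3 pairs (0.28, 0.19 and 0.90), as were 12.6% of all genes tested, yet the groups overlapped, because wild-type sample 1 lay above phd3 null sample 2. Mean signal was 252.3 ± 36.2 in phd3 null neutrophils, against 184.1 ± 57.3 in wild type (SD, n = 3 each), a log2 fold change of 0.46 (SE 0.34, 95% interval -0.29 to 1.21, adjusted p = 0.9996). With the block the 95% interval was -0.14 to 1.05 (SE 0.28, adjusted p = 0.888 in limma). Without both arrays of replicate 3, and with no block, the log2 fold change was 0.24 (SE 0.33), and wild-type sample 3 was the lowest of all 6. The dimmer probe set, 1421071_at, read 258.3, 101.1 and 70.3 in phd3 null and 177, 101.8 and 119.8 in wild type, with a log2 fold change of -0.05 (SE 0.46), and the mean over both probe sets gave 0.20.

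**Figure D2:**
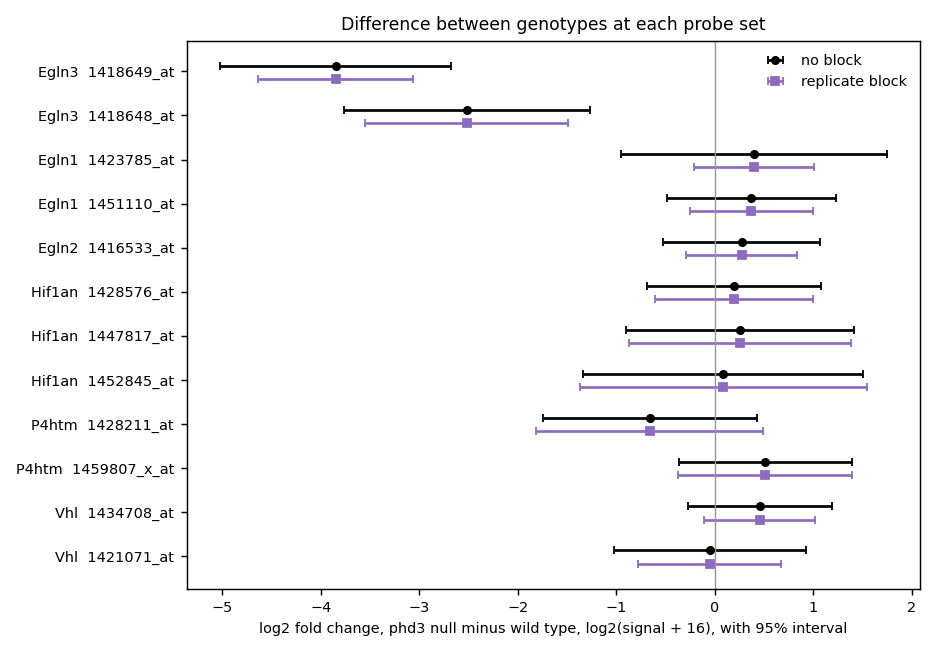
Log2 fold change of each probe set, phd3 null minus wild type on the log2(signal + 16) scale, with 95% intervals from limma over all 45037 non-control probe sets, without (circles) and with (squares) the replicate block. Only the intervals of the 2 Egln3 probe sets lie wholly below 0, and the other 10 include 0 in both fits.

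Counted together, 4 of the 5 tested genes had a fold change above 0, against 49.4% of all genes tested, and Egln3 was the 1 below. Leaving out both arrays of replicate 3 gave the same count of 4, with 49.6% of all genes above 0. Over probe sets, 8 of 12 were above 0 (52.2% of all probe sets), or 9 without replicate 3 (52.1%). The groups did not overlap at 3 of the 12 probe sets, all lower in phd3 null, as for 3.56% of all probe sets in that direction. These were both Egln3 probe sets and the dim 1428211_at of P4htm. With no block 0 members passed at either level, and 2 of the 12 probe sets, both of Egln3, had an unadjusted p under 0.05, as did 3.07% of all probe sets. With the block 1 member passed, Egln3, at 1418649_at, while 0.0133% of all probe sets did. Apart from Egln3, none of the members was called by limma with the adjusted threshold in any of the settings listed in the closing part.

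**Figure D3:**
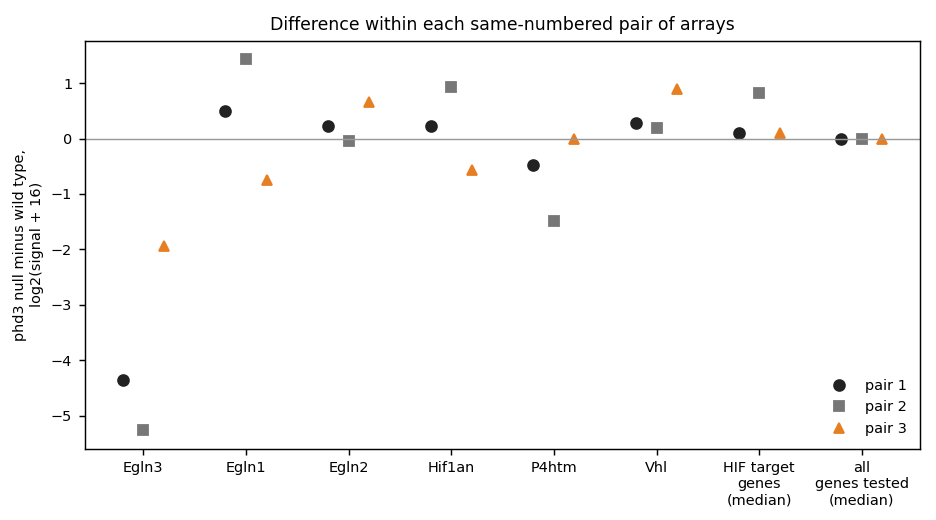
Difference between phd3 null and wild type in each same-numbered pair, on the log2(signal + 16) scale, for the brightest probe set of each member, with the median of 21 HIF target genes and of all 10960 genes tested beside them. Egln3 and P4htm (-0.48, -1.49 and -0.01) were lower in every pair and Vhl higher in every pair, while Egln1 and Hif1an turned sign in pair 3 and Egln2 in pair 2. P4htm was below the level for testing. The dimmer probe sets of P4htm (0.85, 1.14 and -0.44) and Vhl (0.51, -0.01 and -0.65), not drawn here, changed sign between pairs.

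The members differed in how they stood on the replicate 3 arrays. Both arrays of replicate 3 lay below the other 4 at both Egln1 probe sets and at Egln2, that is for 2 of 5 tested genes, against 16.9% of all genes tested and 15 of 21 tested HIF target genes. The mean log2 value of replicate 3 minus that of replicates 1 and 2 was taken over both genotypes. At the brightest probe sets it was -2.14 for Egln1, -1.05 for Egln3, -0.80 for Egln2, -0.38 for Vhl and -0.09 for Hif1an. At the other probe sets it was -0.83 for Egln1, 0.01 for Egln3, -0.60 for Vhl, and 0.21 and 0.44 for Hif1an. The Egln3 values average over genotypes that differed in this respect. At 1418648_at sample 3 was the lowest in wild type (120.7) and the highest in phd3 null (73.9). For comparison the same difference was -4.16 for Bnip3, a mitophagy receptor gene, -2.81 for Pdk1, a kinase gene of pyruvate dehydrogenase, and -2.18 for Ldha, the lactate dehydrogenase gene. Centred on each gene's own mean, the median of the HIF target genes in samples 1 to 3 was 0.70, 0.80 and -1.25 in phd3 null, against 0.73, 0.22 and -1.20 in wild type. The higher B cell marker sums, the lower monocyte marker sums, carried by Csf1r and F13a1, and the lower levels of 5 of 12 neutrophil markers given above fell on the same 2 arrays. Their part in the Egln1 and Egln2 values was not tested.

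**Figure D4:**
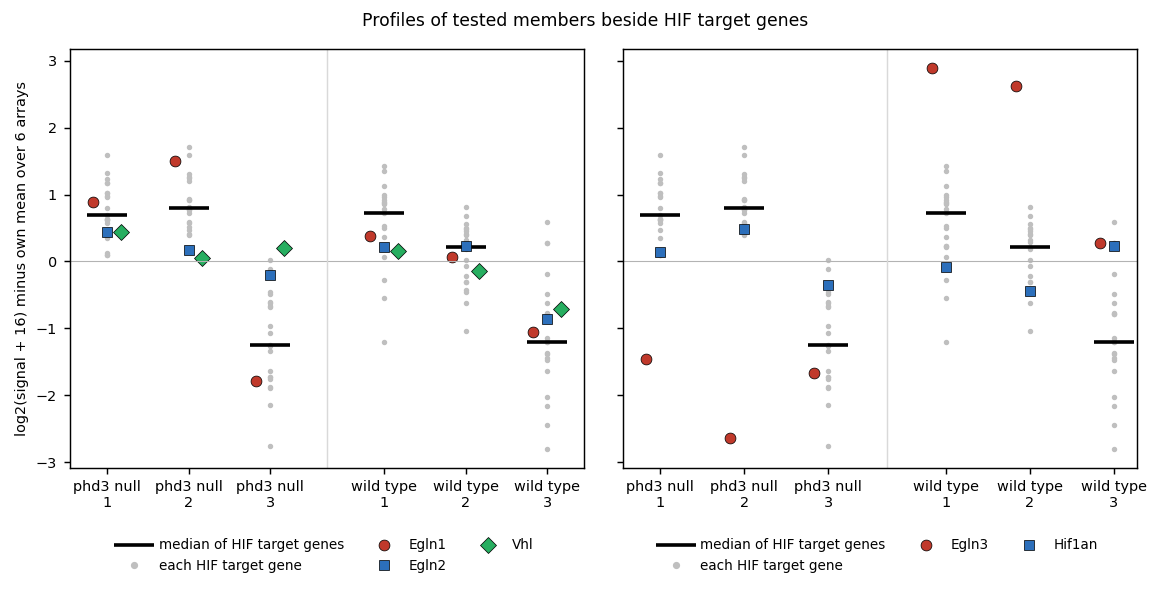
log2(signal + 16) of each array minus the gene's own mean over 6 arrays, for Egln1, Egln2 and Vhl (left) and for Egln3 and Hif1an (right), with 21 HIF target genes as grey points and their median as bars. For Egln1, as for the HIF target median, both samples of replicate 3 are the lowest of their genotype, and Hif1an stays within 0.93 log2 units over all arrays.

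The HIF subunits, whose alpha members are the substrates of these enzymes, did not pass. Hif1a, the main oxygen-regulated alpha subunit gene, read 2414, 2059.6 and 1242.3 in phd3 null and 3974.3, 2407.2 and 748 in wild type, with a log2 fold change of -0.07 (SE 0.57). Its pairs gave -0.72, -0.22 and 0.72, and both replicate 3 arrays lay below the other 4. The alpha subunit gene Hif3a differed by -0.32 (SE 0.53), the beta subunit gene Arnt by -0.26 (SE 0.34) and its relative Arnt2 by -1.0 (SE 0.51). Arnt2 was dim, at 33.9, 21.8 and 32.3 in phd3 null and 49.7, 103.7 and 76.2 in wild type. Its groups did not overlap, as for 3.02% of all genes tested in that direction. Epas1, which encodes HIF-2alpha, was below the level for testing. All 4 tested subunits had a fold change below 0, while 49.4% of all genes tested were above 0. The median of the 4 was -0.29, against -0.01 over all genes tested, and -0.50 without both arrays of replicate 3.

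Partners of VHL in its ubiquitin ligase also had fold changes below 0 in 3 of 3 tested cases, and 0 passed. Over all genes tested, 49.4% were above 0. The elongin gene Eloc read 551.3, 616.6 and 522.2 in phd3 null and 866.9, 733.7 and 656.9 in wild type, so the groups did not overlap, as for 3.02% of all genes in that direction. Its log2 fold change was -0.40 (SE 0.29). Elob differed by -0.20 (SE 0.40) and the scaffold gene Cul2 by -0.32 (SE 0.33), while Rbx1, the RING subunit gene, was below the level for testing. The list's median was -0.32. Vhl itself, at its brighter probe set, had a fold change above 0.

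Among other genes tied to the pathway 0 passed in either fit. Of all genes tested, 49.4% had a fold change above 0, with a median of -0.01. Regulators of the hydroxylases or of HIF were above 0 in 7 of 9 tested cases (median 0.07), from Siah2, a ubiquitin ligase gene whose product targets EGLN proteins, at 0.51 (SE 0.44), to the deubiquitinase gene Usp33 at -0.14 (SE 0.47). Enzymes that make or use 2-oxoglutarate, succinate and fumarate, the cosubstrate, product and inhibitor of the hydroxylases, were above 0 in 4 of 12 (median -0.19), with Idh1 at 0.39 (SE 0.47) and Idh3a at -0.56 (SE 0.33). For Idh3a the groups did not overlap, as for 3.02% of all genes tested in that direction. Genes of other prolyl hydroxylases or their subunits were above 0 in 4 of 4 (median 0.46), with Ogfod1, whose product modifies a ribosomal protein, at 0.68 (SE 0.38). Of these 4, Ogfod1 was higher in all 3 pairs. The remaining 3 were higher in pairs 1 and 2 and lower in pair 3, where the list's median was -0.26. HIF target genes were above 0 in 18 of 21 (median 0.30), or 20 of 21 without replicate 3 (median 0.53), against 49.6% of all genes without it. Their median was 0.11 in pair 1, 0.82 in pair 2 and 0.09 in pair 3. Of the 21, 6 were higher in all 3 pairs (12.6% of all genes tested). Another 7 were higher in pairs 1 and 2 and lower in pair 3 (12.5%). Among the HIF target genes, Ndrg1, a stress-response gene, had the smallest p of those above 0, at 1.06 (SE 0.53), and Pgk1, a glycolytic enzyme gene, the smallest of those below 0, at -0.26 (SE 0.75).

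Genes closest to each varying member were found by the root mean square difference between log2 profiles over the 6 arrays, each centred on its own mean. Nearest to Egln1, whose own SD over the arrays was 1.12, were Pnpla7, a lysophospholipase gene, at 0.10, Plin3, a lipid droplet coat gene, at 0.11, and the HIF target Hk2, the hexokinase 2 gene, at 0.22. Hk2 read 2398.8, 2914.5 and 304.7 in phd3 null and 1689.5, 1541.9 and 441.1 in wild type, which is the order of the arrays seen for Egln1 in each genotype. Nearest to Egln2 (SD 0.43) were Acadsb at 0.08, Polr3a, an RNA polymerase III subunit gene, at 0.12, and Mlf2 at 0.12. Nearest to Vhl (SD 0.36) were Mcts2 at 0.07, Aldh3b1 at 0.07 and 4930447A16Rik at 0.11. Egln3 (SD 2.13) had no close neighbour, the nearest being the scavenger receptor gene Cd36 at 1.25, Gsdma2 at 1.26 and Tmem63a at 1.32. Cd36 read 450.1, 355.5 and 206 in phd3 null and 1185.9, 2417.1 and 447.3 in wild type. These distances describe 6 arrays out of which the nearest of 10960 genes were taken.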

How the data were processed

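Neutrophil RNA from 3 phd3 null and 3 wild-type mice was analysed on 6 arrays. The authors deposited 1 intensity for each probe set and array, made with MAS5 and not log-transformed, per the submitters' processing notes and the values themselves. Other upstream steps are not given in the sources used here. After trimming 2% at each end, the mean was 100 on every array, so a global change in RNA amount would not show. Of 45101 probe sets, 64 controls were left out, and 34945 had 1 gene symbol, 932 several and 9160 were unnamed here.

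The test was limma 3.58.1 under R 4.3.3 (lmFit, eBayes with a trend, two-sided) on log2(signal + 16), with Benjamini-Hochberg adjustment and a threshold of 0.05. The fit across genes used the probe set with the highest mean per gene and the 10960 genes with a mean of at least 5.9, the median of all non-control probe sets. A second fit took all 45037 probe sets with no filter. When arrays were left out, genes and probe sets stayed as chosen on 6 arrays. The code was tested on simulated data. No set test was run, and lists are given by their counts and medians.

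Deviations from group means correlated across genes at 0.292, 0.151 and 0.474 in same-numbered pairs, and same-numbered samples share a code in the source label. The numbers were therefore read as pairs. Sample 2 of phd3 null correlated slightly more with wild-type sample 1 (0.177). The block is given where it changes a call and for every member tested across genes.

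Members, lists and the rule for named genes were chosen with earlier results of these data known. The rule named all members, the HIF subunits and VHL partners, in other lists the gene of smallest p in each direction, the 3 nearest profiles of each tested member with a range above 1, and Bnip3, Ldha and Pdk1. Hk2 entered by its profile. Separate mice per array are taken from the labels. Alternatives were the block, the pseudocount, quantile normalization, the filter, averaging of probe sets, the trend, array weights and left-out arrays. Start positions came from RefSeq (GRCm38.p6), while the value table names no build.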

Additional observations from a re-analysis of the deposited data

How the results depend on the processing

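The number of genes called was 0 with no block, and 191 genes had an unadjusted p under 0.05. It was 2 with the replicate block, 1 without both arrays of replicate 3, and 46 with the block and without those arrays, a fit with 1 residual degree of freedom in which limma estimated no spread of each gene's own. Leaving out 1 array gave 0 to 1 genes. Egln3 passed with the replicate block (-3.85), without both arrays of replicate 3 (-4.81, with and without the block), and without wild-type sample 3, and ran from -4.68 to -3.37 when 1 array was left out. In the fit over all probe sets, 1418649_at also passed with array quality weights (-4.14), and 1418648_at passed without replicate 3 (-3.48).

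Direction turned in these cases and in no other setting tried. Leaving out 1 array gave -0.25 to 1.40 for Egln1, -0.085 to 0.46 for Egln2, -0.0012 to 0.42 for Hif1an, -0.28 to 0.40 for its probe set 1452845_at and -0.53 to 0.30 for 1421071_at of Vhl. The last probe set also turned with array quality weights (0.045) and without both arrays of replicate 3 (0.25, with and without the block). The cause was not tested. Among the 6 members, the block changed no call but that of Egln3. P4htm was tested across genes only with no filter, so its other settings come from the fit over all probe sets. No result was flagged by a single outlying sample, since groups of 3 are not tested for that.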
